A study of Mus musculus with 9 samples.

Results

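Smooth muscle contractile genes were examined in fibroblasts from mouse embryos (MEFs) on arrays that give 1 log2 expression value per probe set. The 10 genes were Acta2, Actg2, Tagln, Myl9, Cnn1, Cnn2, Smtn, Tpm1, Tpm2 and Myh11. Every probe set that carries 1 of these symbols in the authors' deposited table was taken, which gave 19 of 45101 probe sets. Tpm1 and Tpm2 had 4 probe sets each, Acta2 had 3, Myh11 had 2 and the other genes had 1. All cells were MEFs grown in DMEM. Controls had a short hairpin RNA that targets GFP, which mouse cells lack (shGFP, n = 3), and in the knockdown group the hairpin targeted the forkhead transcription factor Foxk1 (shFoxk1, n = 3). In the last group the Foxk1 hairpin was combined with added-back Foxk1 (rescue, n = 3). The labels name no mouse strain, embryo age, vector or time, and do not say whether the replicates were separate cultures.

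Smooth muscle cells shorten when myosin motors pull on actin filaments. Acta2 and Actg2 encode the smooth muscle actins, Myh11 the smooth muscle myosin heavy chain and Myl9 a regulatory light chain, whose phosphorylation switches the motor on. Tropomyosins (Tpm1, Tpm2), calponins (Cnn1, Cnn2), transgelin (Tagln) and smoothelin (Smtn) bind along the actin filament. Many of these genes are targets of the serum response factor SRF, which binds a DNA element called the CArG box together with myocardin-related cofactors. Fibroblasts switch on Acta2 and Tagln when they become myofibroblasts, the contractile cells of healing wounds.

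Within groups, arrays correlated at 0.998 to 0.999 across genes, each by its brightest probe set, and array medians lay between 5.91 and 5.94. The brightest Foxk1 probe set stood at 8.94 ± 0.05 (SD, n = 3) in shGFP, 7.82 ± 0.12 in shFoxk1 and 7.86 ± 0.16 in rescue, so it followed the hairpin labels. Rescue differed from shFoxk1 by 0.04 on it (limma adjusted p = 0.883), and by 0.09 (adjusted p = 0.734) and 0.17 (adjusted p = 0.339) on the other Foxk1 probe sets, which were dim. None of the 3 showed added-back Foxk1 past the test, and the sources used here do not say which part of the transcript they read, so the rescue group is called so by its label alone. Of the 19 member probe sets, 12 had a mean at or above 5.92, the median of all values, and these belong to 7 of the 10 genes. The other 3 genes, Actg2, Cnn1 and Myh11, lay below the median on all 9 arrays. Myh11 and Cnn1, defining markers of mature smooth muscle, were thus dim in all 3 groups.

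The first question is what the Foxk1 hairpin changed, from shFoxk1 against shGFP. Tagln, Acta2 and Myl9 rose and Smtn fell, and the other 15 member probe sets did not pass the test. Differences are given on the log2 scale from a limma fit over all 9 arrays, with p-values adjusted by Benjamini-Hochberg over 45037 probe sets and calls at an adjusted p under 0.05. In this comparison 2.77% of all probe sets were called, 1.12% higher and 1.65% lower. Of the members, 3 of 19 were called higher and 1 lower.

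Tagln, which encodes the actin-binding protein transgelin, was measured by 1 probe set, 1423505_at. Its log2 levels in shGFP were 8.86, 8.96 and 8.85, those in shFoxk1 were 9.72, 9.89 and 9.66, and those in rescue were 9.04, 9.08 and 9.03. Every shFoxk1 array lay above every array of the other groups, and the rescue arrays lay just above the shGFP arrays. Tagln rose by 0.87 in shFoxk1 (SE 0.06, 1.82-fold, limma adjusted p = 6.81e-05), the largest difference among the 19 member probe sets. It ranked 35 among all probe sets by p-value.

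Acta2, the smooth muscle alpha actin, was bright on the probe set 1416454_s_at, whose suffix marks probes that can match other transcripts. Its levels were 10.87, 10.93 and 10.85 in shGFP, 11.72, 11.82 and 11.66 in shFoxk1, and 11.15, 11.17 and 11.17 in rescue. The 3 groups did not overlap, with shGFP lowest, rescue between and shFoxk1 highest. The rise in shFoxk1 was 0.85 (SE 0.05, 1.80-fold, limma adjusted p = 2.62e-05). The other Acta2 probe sets, 1456658_at and 1444105_at, lay below the median of every array, at means of 4.72 and 4.29 in shGFP. They differed by -0.13 (adjusted p = 0.489) and 0.07 (adjusted p = 0.748), so the rise of Acta2 was seen with the bright probe set alone. The mean of the 3 probe sets was no longer called in the comparisons with rescue, as given there.

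**Figure D1:**
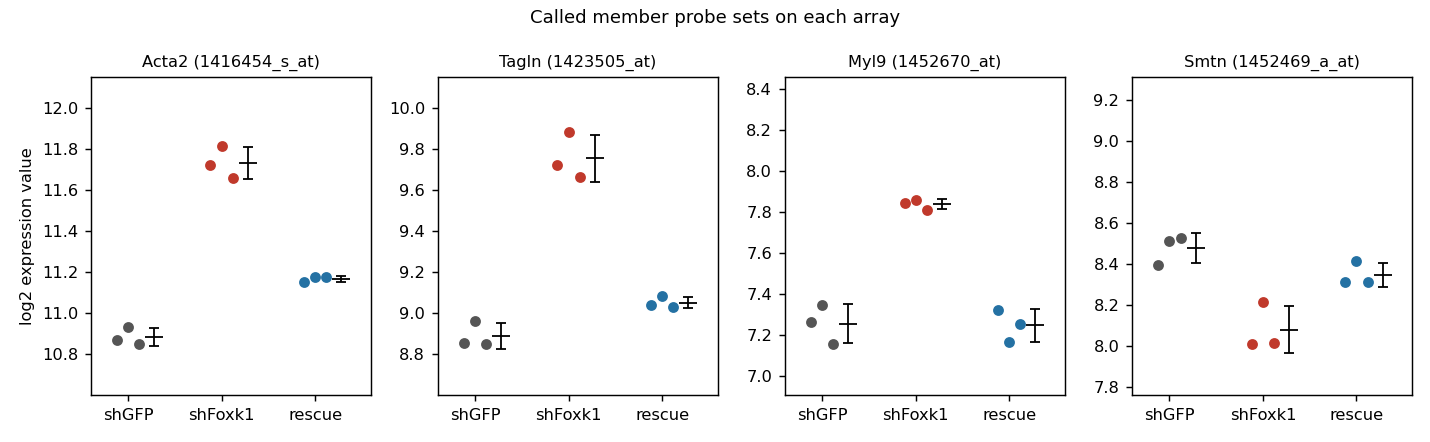
Log2 expression value (vertical axis) of the 4 called member probe sets on each array (points, 3 per group), with the group mean ± SD beside them. Every vertical axis spans the same log2 range without starting at 0. The shFoxk1 arrays lie above all others for Acta2 (11.66 to 11.82), Tagln (9.66 to 9.89) and Myl9 (7.81 to 7.86) and below all others for Smtn (8.01 to 8.21).

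Myl9, the regulatory light chain, was measured by 1452670_at. It stood at 7.26, 7.35 and 7.16 in shGFP, at 7.84, 7.86 and 7.81 in shFoxk1 and at 7.32, 7.16 and 7.26 in rescue. The shFoxk1 arrays were apart from both other groups, which overlapped each other. Myl9 rose by 0.58 in shFoxk1 (SE 0.06, 1.5-fold, limma adjusted p = 0.000733).

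Smtn, which encodes smoothelin, a protein of contractile smooth muscle filaments, went the other way on 1452469_a_at. Its levels were 8.40, 8.51 and 8.53 in shGFP, 8.01, 8.21 and 8.01 in shFoxk1, and 8.31, 8.41 and 8.31 in rescue. All shFoxk1 arrays were lower than all others, while rescue and shGFP overlapped. Smtn fell by 0.40 (SE 0.07, 1.32-fold lower, limma adjusted p = 0.0116). Leaving out shGFP replicate 2 gave an adjusted p of 0.0578, leaving out shGFP replicate 3 gave 0.0596, and leaving out shFoxk1 replicate 1 or 3 gave 0.0594 or 0.0503, so that each of these 4 arrays was needed for the call. The array-wide count of 1248 called probe sets, the base of the 2.77%, was 726, 589 and 594 without shGFP replicates 1, 2 and 3, and 619 and 820 without shFoxk1 replicates 1 and 3.

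The sequence before the start site is shown for Acta2 and Myl9, the rising genes matched in the RefSeq promoter table used here, and for Cnn2, which holds a CArG box and was not called. RefSeq promoters of build GRCm38.p6 were matched by symbol for 7 of the 10 genes, and Actg2, Tagln and Myh11 were not matched. Each line gives the 250 bases before the start site, 5′ to 3′ on the gene's strand, and capitals mark CArG boxes. A CArG box was taken as 2 C, 6 letters that are A or T, and 2 G, or as a looser form with 1 other letter among the 6, a pattern that reads alike on both strands.
Acta2 (chr19:34255374-34255623, minus strand): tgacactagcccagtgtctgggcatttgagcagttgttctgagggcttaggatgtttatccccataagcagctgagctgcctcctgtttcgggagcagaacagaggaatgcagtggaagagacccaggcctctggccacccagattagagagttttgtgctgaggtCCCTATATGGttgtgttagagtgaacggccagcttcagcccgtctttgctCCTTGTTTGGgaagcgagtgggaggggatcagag
Myl9 (chr2:156775214-156775463, plus strand): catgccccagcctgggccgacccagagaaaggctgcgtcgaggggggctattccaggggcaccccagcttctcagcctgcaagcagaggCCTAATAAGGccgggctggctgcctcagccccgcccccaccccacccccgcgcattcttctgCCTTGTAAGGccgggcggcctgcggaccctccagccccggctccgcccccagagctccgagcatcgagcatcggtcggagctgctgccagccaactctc
Cnn2 (chr10:79988350-79988599, plus strand): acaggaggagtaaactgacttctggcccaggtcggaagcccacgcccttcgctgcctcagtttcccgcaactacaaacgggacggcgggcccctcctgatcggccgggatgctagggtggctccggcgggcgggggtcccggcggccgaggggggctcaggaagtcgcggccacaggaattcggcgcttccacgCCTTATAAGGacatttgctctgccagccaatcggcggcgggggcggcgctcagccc
The Acta2 window holds 2 sites of the looser form, CCCTATATGG from base 84 to base 75 before the start and CCTTGTTTGG from base 34 to base 25. Myl9 has an exact box, CCTAATAAGG, from base 161 to base 152, and a looser one, CCTTGTAAGG, from base 99 to base 90. Cnn2 has an exact box, CCTTATAAGG, from base 56 to base 47. The windows of Cnn1, Smtn, Tpm1 and Tpm2 hold neither form. Of 32851 RefSeq windows of this length, 1.47% hold an exact box and 8.59% hold either form. The exact forkhead core GTAAACA, searched on both strands, is in 0 of the 7 member windows and in 3.17% of all windows. No looser form of this core was searched, so the 0 does not cover near matches. The Acta2 window, for example, holds tgtttat, 1 letter from tgtttac, which is the core read on the other strand. These matches describe letters in a short window, and no binding was measured.

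Cnn2, a calponin that is not limited to smooth muscle, stood at 12.82, 12.92 and 12.92 in shGFP, 12.96, 13.03 and 12.96 in shFoxk1, and 12.96, 13.01 and 13.10 in rescue. The shFoxk1 arrays were above the shGFP arrays by a small margin, at a difference of 0.10 (95% interval -0.03 to 0.22, limma adjusted p = 0.472). Cnn1, the smooth muscle calponin, had means of 5.36 ± 0.02, 5.45 ± 0.05 and 5.30 ± 0.07 (SD, n = 3) in shGFP, shFoxk1 and rescue. It differed by 0.09 between shFoxk1 and shGFP (95% interval -0.02 to 0.21, adjusted p = 0.469). The shFoxk1 arrays of Cnn1, at 5.40 to 5.50, lay just above the shGFP arrays, at 5.34 to 5.37.

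Actg2, the enteric smooth muscle actin, had levels of 5.36, 5.36 and 5.33 in shGFP, 5.56, 5.46 and 5.82 in shFoxk1, and 5.23, 5.36 and 5.05 in rescue on 1422340_a_at. The shFoxk1 arrays were above all others, by 0.26 over shGFP (SE 0.10), which did not pass (limma adjusted p = 0.215). Myh11 was dim on both probe sets. The brighter, 1418122_at, differed by -0.05 (adjusted p = 0.811), and 1448962_at by -0.16 (adjusted p = 0.326), with levels of 4.47, 4.50 and 4.44 in shGFP and 4.21, 4.40 and 4.35 in shFoxk1. Actg2 and Myh11 therefore gave values of opposite sign, and neither passed the test.

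The tropomyosins lie along the actin filament and set access of myosin, and none of their 8 probe sets was called in any comparison. The brightest Tpm2 probe set, 1419738_a_at, was at 12.24, 12.20 and 12.17 in shGFP and at 12.35, 12.40 and 12.34 in shFoxk1, and at 12.44, 12.32 and 12.38 in rescue. Both groups with the Foxk1 hairpin lay above shGFP on every array, by 0.16 in shFoxk1 (SE 0.05, limma adjusted p = 0.147) and by 0.18 in rescue (SE 0.05, adjusted p = 0.0981). The Tpm2 probe set 1425028_a_at gave 0.17 and 0.20, and 1449577_x_at, which can match other transcripts, gave 0.21 and 0.17, while 1419739_at gave 0.04 in both comparisons. Other settings called some of these differences. With trend and robust variance estimates 1419738_a_at was called in both comparisons with shGFP (adjusted p = 0.0170 for shFoxk1 and 0.00757 for rescue), as was 1425028_a_at (0.0491 and 0.0159). In rescue against shGFP a filter on dim probe sets also called both (0.0339 and 0.0435), and array weights called 1425028_a_at (0.0473).

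Tpm1 behaved unevenly across its 4 probe sets. The brightest, 1423721_at, had levels of 12.93, 12.95 and 12.90 in shGFP, 12.95, 13.03 and 12.98 in shFoxk1, and 12.80, 12.95 and 12.99 in rescue, with the rescue arrays overlapping both other groups. Its difference between shFoxk1 and shGFP was 0.06 (95% interval -0.07 to 0.19, limma adjusted p = 0.694), and 1423049_a_at also gave 0.06. The probe set 1456623_at was at 8.92, 8.88 and 8.96 in shGFP, 9.04, 9.05 and 9.05 in shFoxk1, and 8.85, 8.74 and 8.80 in rescue, so that all 3 groups stood apart. It differed by 0.13 between shFoxk1 and shGFP (adjusted p = 0.261) and by -0.25 between rescue and shFoxk1 (adjusted p = 0.0747, and 0.0230 with the filter and 0.0275 with trend and robust estimates). The dim 1447713_at gave -0.07 in shFoxk1 against shGFP.

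Over the 19 member probe sets, the median difference between shFoxk1 and shGFP was 0.09, beside 0.00153 over all probe sets, and the median size was 0.13, beside 0.07. The groups did not overlap for 13 of 19, 11 of them higher in shFoxk1, where 20.1% of all probe sets had groups that did not overlap. Probe sets of 1 gene share transcripts, so these are not independent. Within shFoxk1, replicate 2 was the highest array for 15 of the 19 members, where it was highest for 41.0% of all probe sets, and within shGFP replicate 2 was highest for 13, where it was for 35.7% of all. The part of these array differences in the counts was not tested, and the calls of Tagln, Acta2 and Myl9 held without either array.

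**Figure D2:**
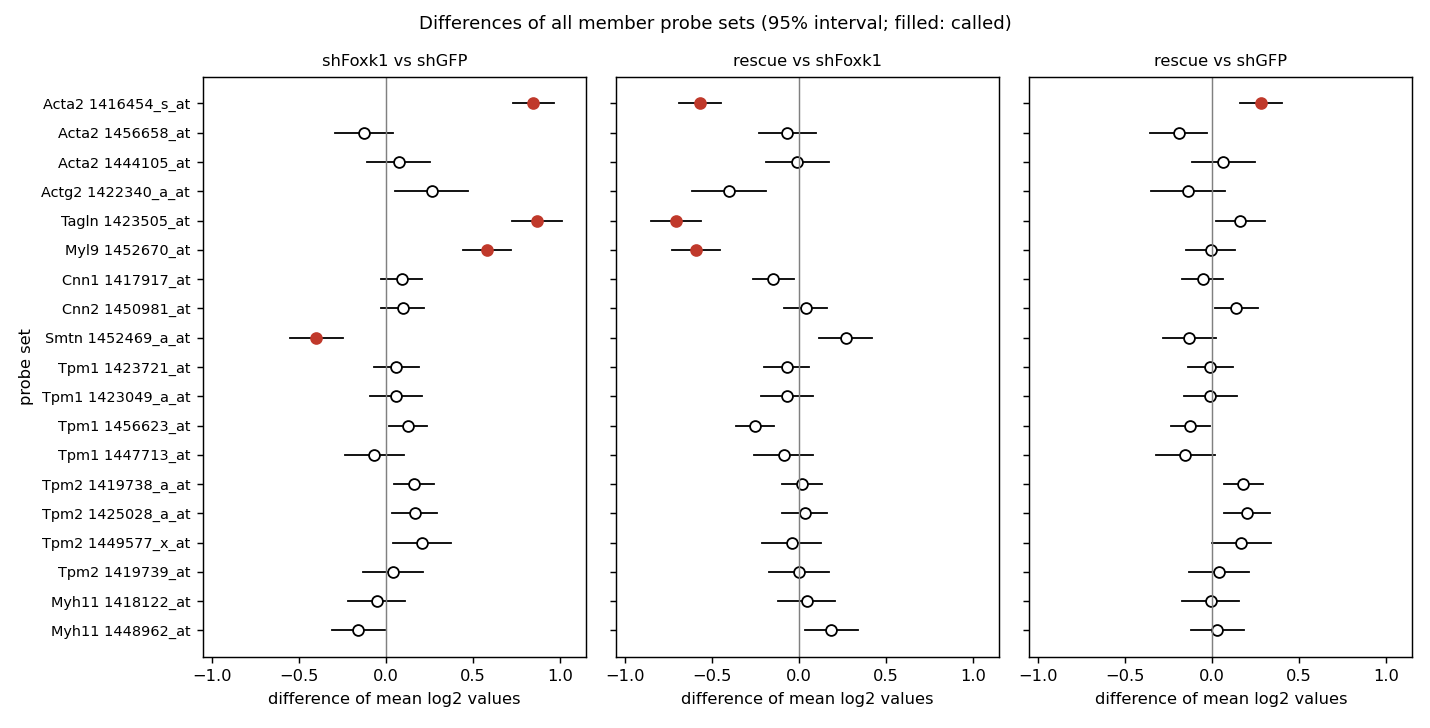
Difference of mean log2 values (horizontal axis) of all 19 member probe sets (vertical axis) in the 3 comparisons, with 95% intervals from the limma fit. Filled points were called at an adjusted p under 0.05. Tagln, Acta2 (1416454_s_at), Myl9 and Smtn are filled in shFoxk1 against shGFP, Tagln, Acta2 and Myl9 in rescue against shFoxk1, and Acta2 alone in rescue against shGFP.

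Because the bright Acta2 probe set can match other transcripts, the remaining actins were read beside it. Actg2, the other smooth muscle actin, moved in the same directions on the dim 1422340_a_at without passing the test. It differed by 0.26 between shFoxk1 and shGFP (limma adjusted p = 0.215) and by -0.40 between rescue and shFoxk1 (adjusted p = 0.142). Whether 1416454_s_at also reads Actg2 was not tested. Actb and Actg1, the cytoplasmic actins, were near the top of the scale, and their brightest probe sets differed by -0.01 and -0.02 between shFoxk1 and shGFP (limma adjusted p = 0.929 and 0.924). The 3 shFoxk1 arrays of Actb read 14.87, 14.86 and 14.86, against 14.87, 14.88 and 14.88 in shGFP. Another Actb probe set, 1419734_at, spread widely within the groups, from 12.19 to 12.97 in shFoxk1, and differed by 0.12 (adjusted p = 0.832). Acta1 and Actc1, the skeletal and cardiac actins, differed by 0.05 (adjusted p = 0.696) and -0.08 (adjusted p = 0.558). Of the 9 actin probe sets, 1416454_s_at was the only 1 called in any of the 3 comparisons.

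**Figure D3:**
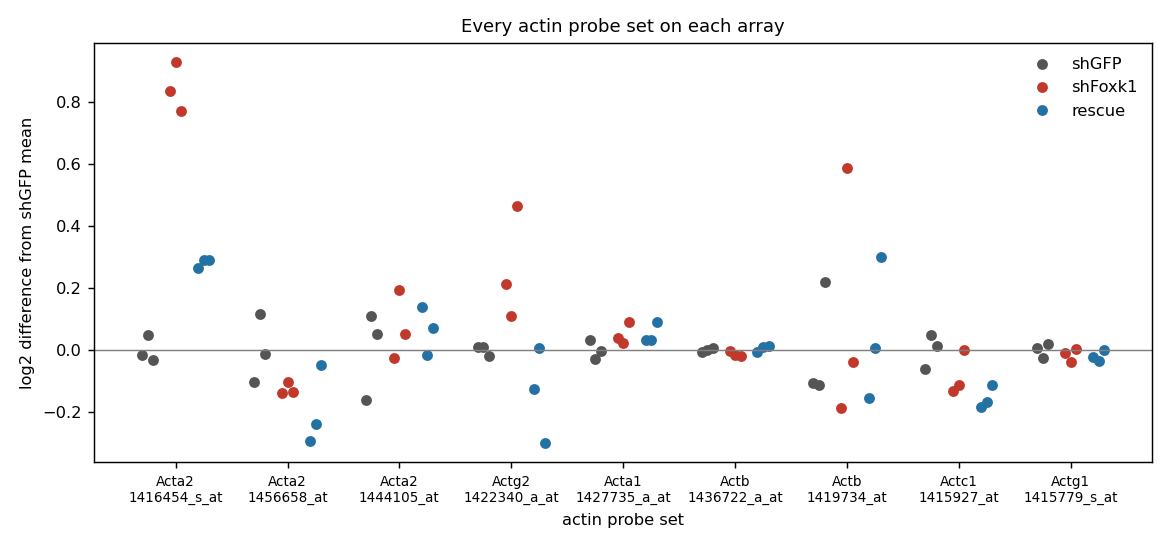
Log2 value minus the shGFP mean of the same probe set (vertical axis) for every actin probe set (horizontal axis) on each of the 9 arrays, coloured by group. The shFoxk1 points of 1416454_s_at (Acta2) lie together, well above 0, and those of 1422340_a_at (Actg2) also lie above 0. The cytoplasmic, skeletal and cardiac actins stay near 0, apart from the scatter of the Actb probe set 1419734_at.

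Rescue against shFoxk1 compares groups that both had the Foxk1 hairpin, where rescue by its label also had added-back Foxk1. Tagln, Myl9 and Acta2 fell, and no member rose. In this comparison 0.391% of all probe sets were called, 0.271% higher and 0.120% lower, and 3 of 19 members were called lower. The comparison shares its shFoxk1 arrays with the one before, so that a chance deviation of those arrays would enter both with opposite sign. Tagln fell by 0.71 (SE 0.06, 1.63-fold lower, limma adjusted p = 0.00124), Acta2 by 0.57 (SE 0.05, 1.48-fold lower, adjusted p = 0.00158) and Myl9 by 0.59 (SE 0.06, 1.51-fold lower, adjusted p = 0.00256). Each rescue array lay below each shFoxk1 array for all of these probe sets. Their ranks by p-value among all probe sets were 15, 18 and 29.

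The calls of Tagln and Myl9 held under each alternative in which they were measured, the leaving out of any 1 array included. That of Acta2 was lost with the mean of its 3 probe sets (-0.21, adjusted p = 0.138). This mean takes in the dim 1456658_at and 1444105_at, which differed by -0.07 and -0.01. The array-wide count of 176 called probe sets was 81 and 65 without shFoxk1 replicates 1 and 3, and 95 and 88 without rescue replicates 2 and 3. Smtn had a mean of 8.35 ± 0.06 (SD, n = 3) in rescue and 8.08 ± 0.12 in shFoxk1, a difference of 0.27 (SE 0.07) that did not pass (limma adjusted p = 0.167) although the arrays did not overlap. Actg2 differed by -0.40 (SE 0.10, adjusted p = 0.142), Cnn1 by -0.15 (SE 0.05, adjusted p = 0.308) and Cnn2 by 0.04 (SE 0.06, adjusted p = 0.801). Myh11 differed by 0.05 and 0.19 on its probe sets (adjusted p = 0.834 and 0.319), and the 4 Tpm2 probe sets by -0.04 to 0.03.

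Over the 19 member probe sets, the median difference between rescue and shFoxk1 was -0.07, beside 0.00460 over all probe sets. The groups did not overlap for 8 of 19, 6 of them lower in rescue, where this was so for 14.2% of all probe sets. The median came to -0.017 without rescue replicate 1, the array that was lowest in its group for 10 of the 19 members and for 36.9% of all probe sets.

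**Figure D4:**
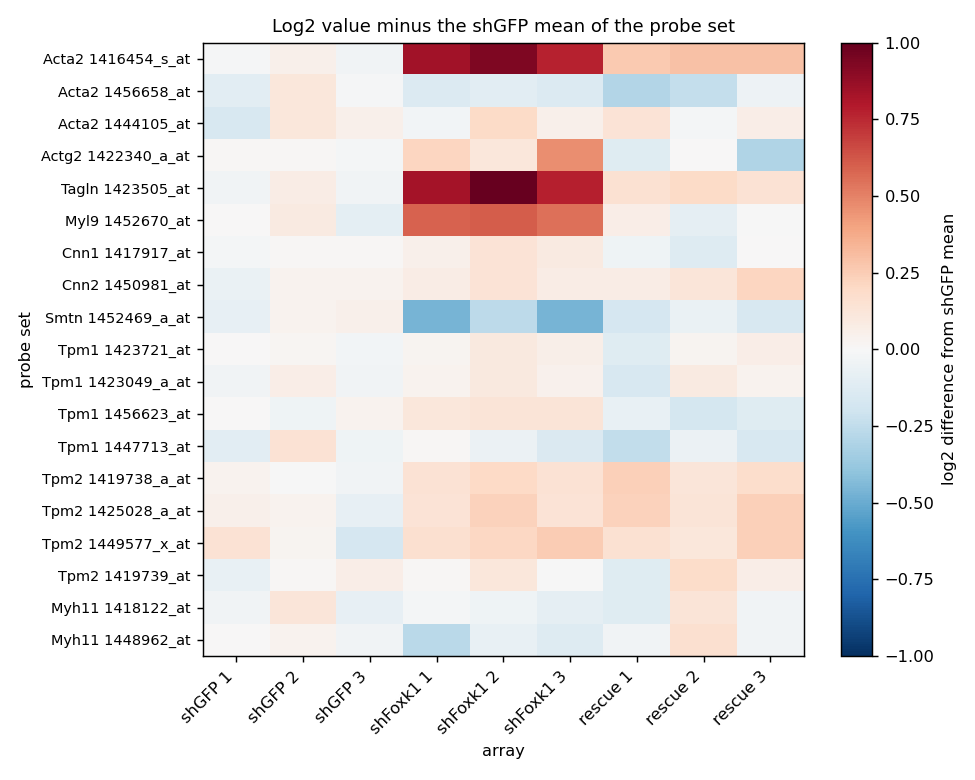
Log2 value minus the shGFP mean (colour, red above and blue below) of each of the 19 member probe sets (rows) on each of the 9 arrays (columns). The shFoxk1 columns are red for Acta2 (1416454_s_at), Tagln and Myl9 and blue for Smtn, the rescue columns are pale for Tagln and Myl9, and 3 of the 4 Tpm2 rows are pale red in both groups with the Foxk1 hairpin.

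The comparison of rescue with shGFP asks how far cells with the Foxk1 hairpin and, by label, added-back Foxk1 stood from cells without either. Acta2 was 0.28 higher in rescue on 1416454_s_at (SE 0.05, 1.22-fold, limma adjusted p = 0.0178), and it was the only 1 of 19 members called, beside 3.51% of all probe sets, 1.29% higher and 2.22% lower. This call was lost without shGFP replicate 1 (adjusted p = 0.0708) or 3 (0.0797), without rescue replicate 2 (0.0548) or 3 (0.0699), and with the mean of the 3 Acta2 probe sets (0.05, adjusted p = 0.696). Tagln was 0.16 higher (95% interval 0.02 to 0.30, adjusted p = 0.252), with every rescue array above every shGFP array. Myl9 differed by -0.01 (95% interval -0.15 to 0.13, adjusted p = 0.968) and Smtn by -0.13 (95% interval -0.28 to 0.02, adjusted p = 0.407). The array-wide count of 1583 called probe sets was 866, 814 and 795 without shGFP replicates 1, 2 and 3, and 981 and 768 without rescue replicates 2 and 3.

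The order of the group means was thus shGFP, rescue and shFoxk1 for Acta2 and Tagln, where the first step was called for Acta2 and not for Tagln. For Myl9, shGFP and rescue could not be told apart and shFoxk1 was higher than both. For Smtn, shFoxk1 was lowest, and its difference from rescue did not pass. The 19 members had a median difference of -0.0076 between rescue and shGFP, beside 0.00845 over all probe sets, and the groups did not overlap for 6 of 19, where 19.5% of all probe sets had groups that did not overlap.

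Genes that act beside the members were read from lists, each gene by its brightest probe set. By that measure 1.52% of 20672 genes were called higher and 1.79% lower in shFoxk1 against shGFP. In rescue against shFoxk1 the shares were 0.416% and 0.160%, and against shGFP 1.98% and 2.02%. Among 15 SRF and MRTF regulators, limma called 0 in shFoxk1 against shGFP, and at an unadjusted p under 0.05 there were 2 higher and 1 lower. The cofactor genes Mrtfa and Mrtfb differed by -0.05 and -0.00079 (adjusted p = 0.838 and 0.996), and Myocd, which encodes the smooth muscle and heart cofactor myocardin, was dim at 5.08 ± 0.10 (SD, n = 3) in shGFP and differed by 0.06 (adjusted p = 0.852). Srf itself differed by -0.16 (adjusted p = 0.146) and was called lower in rescue against shGFP (-0.27, SE 0.05, adjusted p = 0.0158), on a probe set whose probes may match further transcripts. Its call was lost without shGFP replicate 1 (adjusted p = 0.0529), 2 (0.0649) or 3 (0.0653), without rescue replicate 2 (0.0557) or 3 (0.0575), and with the mean of its probe sets (0.127). Csrp2, a LIM protein gene of smooth muscle, was called higher in rescue, by 0.43 against shFoxk1 (adjusted p = 0.0375) and 0.58 against shGFP (adjusted p = 0.00185). The first of these calls was lost without any 1 array other than shFoxk1 replicate 2, with adjusted p from 0.0541 to 0.191, and with the 6 arrays compared alone (0.125). So 1 of 15 was higher and 0 lower in rescue against shFoxk1, and 1 higher and 1 lower in rescue against shGFP.

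Of 20 non-muscle actins, myosins and light chain regulators, limma called 0 in shFoxk1 against shGFP and 0 in rescue against shFoxk1. At an unadjusted p under 0.05 there were 5 higher and 2 lower in the first and 3 each way in the second. In rescue against shGFP 2 of 20 were higher and 0 lower, Mylk, the kinase that phosphorylates the regulatory light chain, by 0.35 (SE 0.08, adjusted p = 0.0461) and the light chain gene Myl12b by 0.25 (SE 0.06, adjusted p = 0.0477). Mylk stood at 8.15 ± 0.02 (SD, n = 3) in shGFP, 8.49 ± 0.07 in shFoxk1 and 8.50 ± 0.18 in rescue, and its difference between shFoxk1 and shGFP, 0.34, had adjusted p = 0.0593. Mylk lost its call without any 1 array other than rescue replicate 2 (adjusted p from 0.0551 to 0.145), and with the 6 arrays compared alone (0.102). Myl12b lost it without any 1 array other than shFoxk1 replicate 2 or 3 (0.0763 to 0.156), with the mean of its probe sets (0.0598), and with arrays centred on their medians (0.0639). Centring had the same effect on Mylk (0.0569).

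Among 25 actin bundlers and stress fibre proteins, 0 rose and 2 fell in shFoxk1. Tes, a LIM protein gene of focal adhesions, fell by 0.28 (SE 0.05, adjusted p = 0.00953) and was 0.37 higher in rescue than in shFoxk1 (SE 0.05, adjusted p = 0.00643), the only 1 of 25 called there. Without shGFP replicate 3 its fall had adjusted p = 0.0527. Synpo, which encodes the actin-associated protein synaptopodin, fell by 0.30 (SE 0.06, adjusted p = 0.0352), a call lost without any 1 array other than rescue replicate 1 or 2 (0.0522 to 0.117), with the 6 arrays compared alone (0.0637) and with the mean of its probe sets (0.0904). Synpo was 0.33 higher in rescue than in shFoxk1, a difference that the main fit did not call. Limma called it with 1 brightest probe set a gene (adjusted p = 0.0408), the filter (0.0322) and trend and robust estimates (0.0168). In rescue against shGFP limma called 0 of 25, with 2 higher and 0 lower at an unadjusted p under 0.05. The related genes Cnn3, Tpm3, Tpm4, Cald1 (caldesmon) and Tagln2 differed by -0.04, -0.02, 0.02, -0.02 and -0.16 between shFoxk1 and shGFP, none of them called, and Tagln2, Cnn3 and Cald1 were read on cross-matching probe sets. Of 19 striated muscle contractile genes, limma called 0 in each comparison, with 3 higher and 2 lower, 0 and 0, and 0 and 1 at an unadjusted p under 0.05, in the order in which the comparisons are given here.

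**Figure D5:**
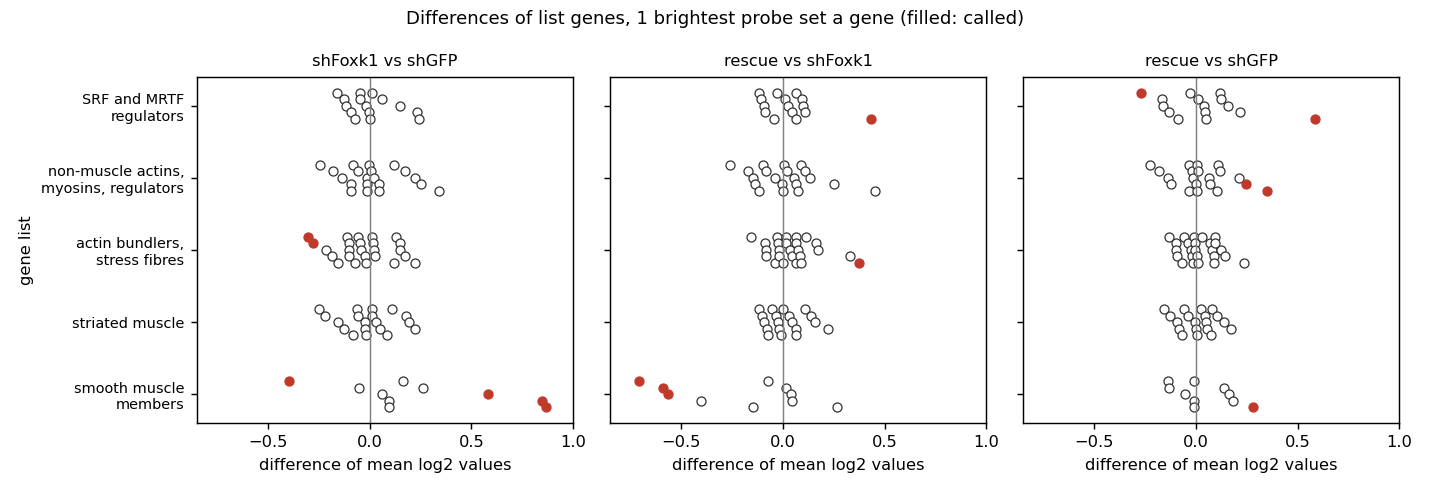
Difference of mean log2 values (horizontal axis) of each gene of 4 lists and of the 10 smooth muscle members (rows), by the brightest probe set of the gene, in the 3 comparisons. Filled points were called. The members hold the 4 called genes farthest from 0 in shFoxk1 against shGFP (Tagln 0.87, Acta2 0.85, Myl9 0.58, Smtn -0.40), and most genes of the 4 lists lie close to 0.

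Marker lists of other cells were read in the same way. Of 12 pericyte and vascular smooth muscle markers, 5 were at or above the median of all values. The list's summed linear level was 3654 to 3789 in shGFP, 3488 to 3633 in shFoxk1 and 3052 to 3589 in rescue. Cspg4 was lower by 0.35 in shFoxk1 and by 0.30 in rescue than in shGFP (adjusted p = 0.0158 and 0.0316), and the other 11 were not called in any comparison. Its call in shFoxk1 was lost when shGFP replicate 1 (0.0640), shGFP replicate 3 (0.0724), shFoxk1 replicate 2 (0.0571) or shFoxk1 replicate 3 (0.0609) was left out, and that in rescue without shGFP replicate 1 (0.116), 2 (0.0694) or 3 (0.118) or rescue replicate 2 (0.103) or 3 (0.127), and with the 6 arrays compared alone (0.0746). The mural cell marker Rgs5 stood at 4.56 in each group. Of 9 macrophage and blood cell markers, 2 were at or above the median of all values, and these, Csf1r and Cd14, fell by 0.38 and 0.35 in shFoxk1 (adjusted p = 0.00458 and 0.00510). The other 7 were not called in any comparison. Differences over the 9 markers in shFoxk1 against shGFP had a median of -0.05 and reached 0.15. That list summed to 1819 to 1930 in shGFP, 1467 to 1524 in shFoxk1 and 1523 to 1599 in rescue. Csf1r was also 0.38 lower in rescue than in shGFP (adjusted p = 0.00414). The part of these markers in the changes of Tagln, Acta2 and Myl9 was not tested, and in bulk RNA fewer cells of a type and less RNA per cell cannot be told apart.

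Of 13 fibroblast markers, 12 were at or above the median. Fn1, the matrix protein fibronectin, rose in shFoxk1 by 0.54 (SE 0.06, adjusted p = 0.000749) and was 0.65 above shGFP in rescue (adjusted p = 0.000286). Dcn, the proteoglycan decorin, fell by 0.28 in shFoxk1 (adjusted p = 0.0106), and was 0.67 higher in rescue than in shFoxk1 (adjusted p = 0.000302). Its fall had adjusted p = 0.0511 without shGFP replicate 2, 0.0559 without shFoxk1 replicate 1 and 0.103 with the mean of its probe sets. Dcn was also 0.40 higher in rescue than in shGFP (adjusted p = 0.00120), as was Col3a1 by 0.22 (adjusted p = 0.0242), a collagen gene whose call was lost without any shGFP array (0.0759 to 0.0927) or rescue replicate 2 (0.0565) or 3 (0.0952), and with the 6 arrays compared alone (0.0527). The other lists, 8 epithelial and 8 endothelial markers, had 0 genes called by limma in each comparison. At an unadjusted p under 0.05 they had 0 and 0 genes in shFoxk1 against shGFP, 1 and 1 higher in rescue against shFoxk1, and 1 and 0 higher in rescue against shGFP. The epithelial list summed to 445 to 470 in shGFP, 456 to 481 in shFoxk1 and 492 to 507 in rescue. Endothelial sums were 241 to 251, 242 to 259 and 244 to 264 in the same order. The fibroblast list summed to 100787 to 103018, 104108 to 104252 and 108678 to 110049. Differences of these sums were not tested.

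The genes most like Tagln over the 9 arrays were sought among 193 genes whose highest group mean was at or above 6.56, the median of all genes, and whose group means spanned at least 0.5. By Pearson correlation they were Bmp4, a growth factor gene (0.98), Epb41l4a (0.97), Akap12, a scaffold gene for protein kinase A (0.97), Ptgfrn (0.95) and Gas6, which encodes a ligand of TAM receptors (0.93). Those most like Acta2 on 1416454_s_at were Bmp4 (0.99), Akap12 (0.99), Ptgfrn (0.98), Epb41l4a (0.98) and Rmnd5a (0.95). Bmp4 stood at 6.90, 7.07 and 6.75 in shGFP, 8.04, 8.26 and 8.10 in shFoxk1, and 7.31 on each rescue array. Akap12 had means of 8.03 in shGFP, 8.96 in shFoxk1 and 8.36 in rescue. Both had the order of Acta2, with no overlap between the groups. The arrays fall into 3 groups that all of these genes share, so the coefficients describe the group pattern and carry no test.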

How the data were processed

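Gene expression in 9 samples of mouse embryonic fibroblasts was read from 1 array each, in 3 groups given by the sample titles. The authors deposited 1 log2 expression value per probe set and array, and per the submitters' processing notes the tools were RMA and affy (no version is stated there). RMA makes the distributions of all arrays alike, so differences in total RNA are removed. The authors' deposited tables give log2 fold changes, p-values and, per the file headers, t and B, each a score. Gene symbols come from these tables. A refit of all 45101 probe sets gave the counts of the authors' deposited tables, 1238 and 170 called probe sets, with adjusted p-values below 0.05.

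The main fit left out 64 array controls. Group means were fitted over all 9 arrays with limma 3.58.1 in R 4.3.3, with 6 residual and 4.58 prior degrees of freedom, no covariate and no filter, and was tested on simulated data. Tests were two-sided. The number of arrays limits the precision (median SE of a difference 0.07). Nothing says that replicates were separate cultures, so a p-value here reflects variation among samples that may be technical.

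The labels number the replicates 1 to 3 in each group. Deviations from the group means of same-numbered arrays correlated at 0.103 to 0.236 in rescue and shFoxk1. They correlated at 0.06 to 0.13 in shFoxk1 and shGFP and at 0.04 to 0.18 in rescue and shGFP. All of these correlations were positive. Those of differently numbered arrays were not set beside them, so whether the numbers mark pairs was left undecided. The main fit used no block, and the replicate number as a block was run as an alternative. The replicate block changed no call of a member.

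The members, the 9 gene lists and the alternatives were chosen with earlier results of these data known. Named genes are all member probe sets, up to 4 called genes per list and comparison with the smallest adjusted p, Foxk1, and the 5 genes most like Tagln and Acta2. Mrtfa, Mrtfb, Myocd, Cnn3, Tpm3, Tpm4, Cald1, Tagln2, Rgs5 and the other actins fall outside this rule and were chosen after their values were seen. That search skipped the members, predicted genes and symbols of cDNA clones. Some symbols were matched through Entrez identifiers in a RefSeq table of GRCm38.p6, and Myh6 had no probe set matched by name.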

Additional observations from a re-analysis of the deposited data

How the results depend on the processing

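The calls of Tagln and Myl9 in shFoxk1 against shGFP and in rescue against shFoxk1 held in every alternative run. The Acta2 rise in shFoxk1 held in each that kept its probe set. No call was reversed. The array-wide count in shFoxk1 against shGFP (1248) was 2029 with a filter on dim probe sets, 2165 with trend and robust variance estimates, 2086 with array weights and 589 to 1339 with 1 array left out. In rescue against shFoxk1 (176) it was 350, 414 and 283 with these settings, 56 with only the 6 arrays compared and 65 to 236 with 1 array left out. In rescue against shGFP (1583 of 45037 probe sets) it was 2399 with the filter, 2541 with trend and robust estimates and 768 to 1715 with 1 array left out. With 1 brightest probe set a gene it was 1042 of 20672 genes. The filter also tested fewer probe sets, so its counts have a smaller base. Called members in rescue against shGFP (1) numbered 3 with the filter, 3 with trend and robust estimates, 2 with array weights, 0 with the mean of a gene's probe sets, 0 once the cross-matching _s_at and _x_at probe sets were left out, and 0 to 1 with 1 array left out. The median difference of the members in shFoxk1 against shGFP was 0.14 with the filter. In rescue against shFoxk1 it was -0.13 with the mean of a gene's probe sets, -0.013 with array weights and -0.086 to -0.017 with 1 array left out. In rescue against shGFP it was 0.090 with the filter and -0.028 to 0.047 with 1 array left out. Called genes of the 4 pathway lists in shFoxk1 against shGFP (2) numbered 5 with 1 brightest probe set a gene, 1 with the mean of probe sets, 5 with the filter, 8 with trend and robust estimates, 7 with array weights, 5 with the replicate block and 0 to 3 with 1 array left out. In rescue against shFoxk1 (2) they numbered 4 with the filter, 4 with trend and robust estimates, 1 with the 6 arrays and 1 to 2 with 1 array left out. In rescue against shGFP (4) they numbered 2 with the mean of probe sets, 2 with arrays centred on their medians and 1 to 3 with 1 array left out. The cause of these shifts was not tested. With the replicate block 4, 3 and 1 members were called in the 3 comparisons in the order above, as without it, and the array-wide counts were 1533, 254 and 1779. Mylk was called in shFoxk1 against shGFP with the block (adjusted p = 0.0449), and also with 1 brightest probe set a gene (0.0430), the filter (0.0309), trend and robust estimates (0.0216), array weights (0.0207), the 6 arrays alone (0.0182) and without rescue replicate 1 (0.00964). Trend and robust estimates added 5 calls of members. Member genes below the array median (Actg2, Cnn1, Myh11) can show little on this array.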
